A study of Homo sapiens with 96 samples.

Results

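The proteasome subunit genes are the genes whose symbol is PSM followed by a letter from A to G and a number. All alternative splicing events that the 8 deposited splicing tables list for such a gene were taken as members, which gave 958 events of 239131 in the series, in 46 genes of 14359. They comprised 36 retained introns (RI) in 18 genes, 618 skipped exon (SE) rows that cover 332 different exons in 45 genes, 45 alternative 3′ splice sites (A3SS), 23 alternative 5′ splice sites (A5SS) and 236 pairs of mutually exclusive exons (MXE). By role the genes were 7 of the α ring, 10 of the β ring, 6 ATPases of the base, 14 other subunits of the base and lid or their chaperones (PSMD), 4 activators, 1 inhibitor and 4 assembly chaperones of the core. The samples were poly(A) RNA from A549, a human lung adenocarcinoma cell line, sequenced in 30 libraries of 10 groups with 3 libraries each. Cells were grown with 0.01% DMSO for 4 or 7 days, with 1 µM GSK591 (an inhibitor of PRMT5, the main Type II arginine methyltransferase) for 2, 4 or 7 days, with 1 µM MS023 (an inhibitor of the Type I arginine methyltransferases) for 2, 4 or 7 days, or with both inhibitors at 1 µM each (co-treatment) for 2 or 4 days. The study asked how the inhibitors change splicing over time. Groups of 2 and 4 days were compared with DMSO of 4 days, and groups of 7 days with DMSO of 7 days, so that 2 days of inhibitor and 2 days less of culture cannot be told apart in the 2-day comparisons.

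The proteasome degrades proteins tagged with ubiquitin. Its barrel-shaped core is built of α rings, which gate the entry, and β rings, which carry the peptidase sites, and in the 26S form it is capped by a regulatory particle with a base of unfolding ATPases and a lid that holds the deubiquitinase. Activators of the PSME family can take the place of that cap, and PSMB8, PSMB9 and PSMB10 replace the constitutive peptidase subunits in the immunoproteasome.

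The inclusion level Ψ is the share of transcripts that keep the alternative segment, among transcripts of the forms that a row counts. It was computed from the reads of the form with the segment and of the form without it after division by the length of each form. In MXE rows each form keeps a different exon of the pair, and Ψ is the share of the form counted as inclusion. A higher or lower Ψ of an MXE row is therefore a shift between these exons, and which exon is counted is not given below. ΔΨ is the mean Ψ of the inhibitor group less that of DMSO, given ± its SE from the spread of 3 libraries a side. An event was called where the adjusted p of a quasi-binomial test, adjusted over all events of its type, was under 0.05, and was tested only with at least 10 reads in every library. Libraries held 3148825 to 5224249 reads on RI rows, of which 32763 to 56102 lay in proteasome subunit genes, and 45420420 to 97845475 on SE rows, of which 389593 to 911023 lay in them. The labels do not say whether libraries of a group came from separate cultures, so the p-values cover at most the spread between libraries. The dispersion behind each p-value was drawn towards a value estimated over many events of its type, so it does not reflect that event's own libraries alone. Values of 3 libraries are given below in the order a, b, c, which only names them.

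The exons on which the results turn are shown with 10 intronic bases on each side in lower case and the exon in capitals, from hg19. All lie on the plus strand and belong to the coding sequence of the canonical transcript, except the shorter PSMA4 form, which starts at a 3′ splice site inside exon 4.
PSMD11 exon 11, chr17:30806869-30806904: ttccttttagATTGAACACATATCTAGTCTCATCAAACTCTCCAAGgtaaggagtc
PSMC5 exon 5, chr17:61907493-61907549: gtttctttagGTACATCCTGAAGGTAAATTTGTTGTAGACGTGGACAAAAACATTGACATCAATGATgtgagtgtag
PSMA4 exon 4, chr15:78834825-78834987: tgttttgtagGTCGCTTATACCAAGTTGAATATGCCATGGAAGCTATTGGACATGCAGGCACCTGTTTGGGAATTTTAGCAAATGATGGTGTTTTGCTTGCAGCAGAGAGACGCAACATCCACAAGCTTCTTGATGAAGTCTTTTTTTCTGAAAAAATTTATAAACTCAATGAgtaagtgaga
PSMA4 exon 4, inner form, chr15:78834918-78834987: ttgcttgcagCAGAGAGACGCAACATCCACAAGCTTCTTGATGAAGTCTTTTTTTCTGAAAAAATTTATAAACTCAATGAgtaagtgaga
PSMB9 exon 3, chr6:32825040-32825171: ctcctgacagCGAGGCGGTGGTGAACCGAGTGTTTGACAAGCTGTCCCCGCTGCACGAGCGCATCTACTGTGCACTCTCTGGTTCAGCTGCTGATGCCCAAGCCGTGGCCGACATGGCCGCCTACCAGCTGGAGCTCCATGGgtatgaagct

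The 4 introns plotted below are shown by their splice sites, because these are the positions at which retained and spliced reads part. The 5′ site is printed with 3 exonic and 6 intronic bases and the 3′ site with 20 intronic and 3 exonic bases, and the capitals mark the first and last base pairs of the intron.
PSMA1 intron 5, minus strand, chr11:14535434-14535948, 5′ site: gcaGTatcc
PSMA1 intron 5, 3′ site: agctcgttaaccagtctaAGaga
PSMB4 intron 5, plus strand, chr1:151373832-151374017, 5′ site: cggGTgagg
PSMB4 intron 5, 3′ site: aatgctctgctttcttccAGttt
PSMB8 intron 2, minus strand, chr6:32810561-32810718, 5′ site: ttaGTgagt
PSMB8 intron 2, 3′ site: aaagctccatcttcttccAGgtg
PSMC4 intron 8, plus strand, chr19:40486054-40486192, 5′ site: aagGTttgg
PSMC4 intron 8, 3′ site: ggcctgccccccaatgtcAGgta

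PSMD11, a subunit of the lid, gave the largest called ΔΨ among the RI rows of these genes in each GSK591 comparison, and the same reads made its exon 11 one of the most changed exons. Exon 11 (36 bases, a multiple of 3, of 14 exons) was kept in nearly all reads counted on its row in DMSO and was skipped more often in every GSK591 group. Ψ of exon 11 was 0.996, 0.996 and 0.994 in DMSO of 4 days. It was 0.935, 0.938 and 0.943 after 2 days of GSK591, and 0.892, 0.866 and 0.867 after 4 days. After 7 days it was 0.882, 0.885 and 0.858, against 0.995, 0.991 and 0.994 in the DMSO of that day. No GSK591 library overlapped with DMSO. GSK591 gave a ΔΨ of -0.0567 ± 0.0026, -0.12 ± 0.0085 and -0.119 ± 0.0086 for the 3 durations in turn (adjusted p = 5.12e-32, 1.36e-76 and 8.07e-48), each called also with any one library left out. In limma on the log2 odds the calls at 4 and 7 days were kept (adjusted p = 0.0215 and 0.0351) and the call at 2 days was not (0.0766).

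MS023 left the skipping of PSMD11 exon 11 near the level of DMSO at 2 and 4 days, with ΔΨ of 0.00072 ± 0.0014 and 1e-04 ± 0.002. At 7 days of MS023 no read joined exon 10 to exon 12 in any library, of 1191, 1142 and 1134 reads on the row, which allows a share of such reads of up to 0.252%, 0.263% and 0.265% (3 counts, counting error only). Ψ was accordingly 1 in each, against 0.994 ± 0.0021 in DMSO (SD, n = 3), a ΔΨ of 0.0065 ± 0.0012 (adjusted p = 0.00731), a call that was lost without MS023 library a or b (adjusted p up to 0.0552) and in limma (0.101).

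With both inhibitors present the exon was skipped less than with GSK591 alone in the quasi-binomial test. Ψ was 0.986, 0.987 and 0.987 at 2 days and 0.986, 0.985 and 0.985 at 4 days of co-treatment. Tested directly, co-treatment exceeded GSK591 by 0.0478 ± 0.0025 at 2 days (adjusted p = 5.33e-16) and by 0.11 ± 0.0085 at 4 days (1.19e-42), with all co-treated libraries above all GSK591 libraries. Both direct calls held without any one library. They were lost in limma (0.171 and 0.0857) and with the dispersion of each event drawn towards a prior from all events (0.104 and 0.0507), an alternative chosen after seeing the data. Against DMSO, co-treatment was lower by a small amount, with ΔΨ of -0.0089 ± 0.00068 (adjusted p = 0.013) and -0.0101 ± 0.00076 (0.00748). These 2 calls were lost in limma (0.179 and 0.135) and when single libraries were left out: DMSO a or b or co-treatment a or b at 2 days (up to 0.0874), and DMSO b at 4 days (0.0562).

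The PSMD11 row listed as a retained intron (chr17:30806395-30807163, 769 bases) is not an intron of any annotated transcript. It holds exon 11 and the introns on both sides of it, and its spliced form is the junction from exon 10 to exon 12, the same reads that count as skipping in the SE row. Transcripts that splice exon 11 in belong to neither form, so Ψ of this row is not a share of all PSMD11 transcripts. Those reads numbered 7, 8 and 10 in DMSO of 4 days, 148, 134 and 104 after 2 days of GSK591, 160, 214 and 229 after 4 days, and 101, 88 and 124 after 7 days against 5, 8 and 6 in DMSO. Reads on the retained form numbered 112, 144 and 86 in DMSO of 4 days, 136, 193 and 128 after 2 days of GSK591 and 93, 109 and 132 after 4 days, so that these raw read numbers overlapped between the groups.

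In that RI row Ψ was 0.722, 0.745 and 0.583 in DMSO of 4 days, 0.13, 0.189 and 0.167 after 2 days of GSK591 and 0.0862, 0.0764 and 0.0856 after 4 days. After 2, 4 and 7 days of GSK591 its ΔΨ was -0.521 ± 0.054, -0.6 ± 0.051 and -0.506 ± 0.07 (adjusted p = 1.1e-06, 1.43e-11 and 3.6e-10), and the calls were kept in limma and without any one library. Co-treatment gave -0.318 ± 0.058 at 2 days and -0.293 ± 0.066 at 4 days (0.00406 and 0.00872). At 7 days of MS023 ΔΨ was 0.437 ± 0.07 (0.0133), called no longer without any one of the MS023 libraries (up to 0.0728) or in limma (0.0719). It rested on 56, 43 and 42 reads, none of them spliced, which allows spliced shares of up to 5.36%, 6.98% and 7.14%. Because both rows share their junction reads, they are one change counted in 2 event types.

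**Figure D1:**
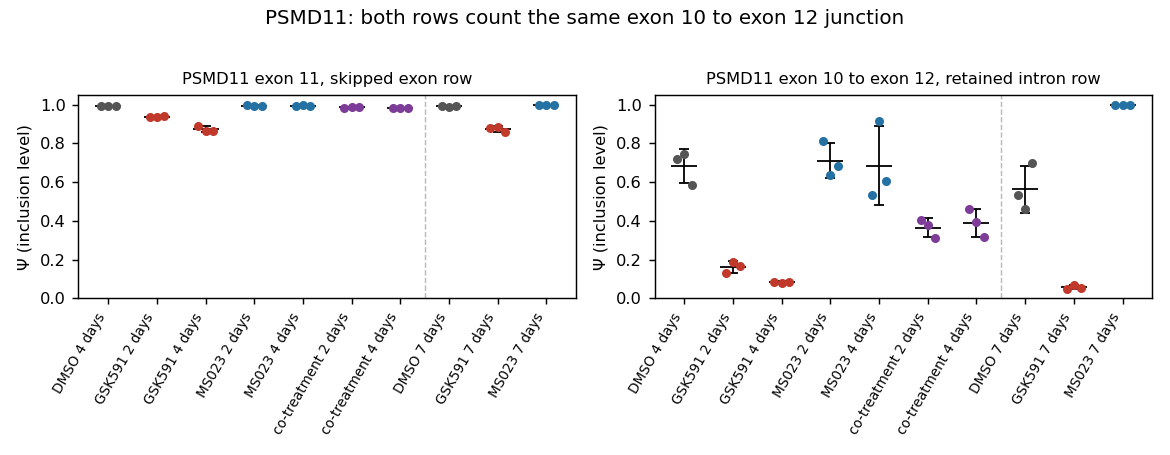
Inclusion level Ψ (y axis, 0 to 1) of PSMD11 in each of 3 libraries of 10 groups (points), with the mean and SD (lines), for the SE row of exon 11 on the left and for the row listed as a retained intron on the right. The dashed line separates the 7-day groups, which have their own DMSO. GSK591 libraries lie below DMSO in both panels, at 0.858 to 0.943 for exon 11, and co-treated libraries lie between.

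Rows of this kind were not limited to PSMD11. Of the 36 RI rows of proteasome subunit genes, 8 (22.2%) held a skipped exon flanked by the same junction, against 587 of 4928 (11.9%) in the series. An intron of the canonical transcript was the retained segment in 21 of 36 rows (58.3%, against 61.4% of all rows). All 36 began with GT and ended with AG (96.4% of all rows did), their median length was 245.5 bases against 260, and their median GC content was 47.5% against 57.4%. The 21 canonical introns lay in coding sequence and were 78 to 1284 bases long, 9 of them a multiple of 3. If retained, 19 would place a stop codon in frame, and 2, in PSMB8 and PSMD12, would not within the intron.

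Called RI rows of proteasome subunit genes were mostly higher at 2 and 4 days of GSK591 and of co-treatment. The share called is given beside that of all RI rows, and the difference between these shares was not tested. The 6 comparisons of 2 and 4 days share the DMSO libraries of 4 days and both comparisons of 7 days share those of 7 days, so they are not independent. After 2 days of GSK591 8 of 35 tested rows were called (22.9%, against 25.8% of all RI rows), 6 higher and 2 lower (all rows: 23.6% higher, 2.25% lower). After 4 days 11 of 33 were called (33.3% against 37.5%), 9 higher and 2 lower (33.3% and 4.17% of all rows). After 7 days 5 of 33 were called (15.2% against 27.5%), 2 higher and 3 lower (21.5% and 6.0% of all rows). Co-treatment for 2 days gave 9 of 34 (26.5% against 34.4%), 8 higher and 1 lower (29.4% and 4.95% of all rows). Co-treatment for 4 days gave 13 of 33 (39.4% against 39.3%), 11 higher and 2 lower (33.3% and 5.98% of all rows). Under MS023 1 of 33 was called at 2 days, and it fell (3.03% against 5.42%; 1.32% of all rows rose and 4.1% fell). At 4 days of MS023 1 rose and 1 fell of 32 (6.25% against 7.1%; 1.52% and 5.58% of all rows). At 7 days of MS023 2 rose and 3 fell of 31 (16.1% against 11.4%; 1.88% and 9.54% of all rows).

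The shifts were small. Over the tested RI rows of these genes the median ΔΨ was 0.00465, 0.0089 and 0.00118 after 2, 4 and 7 days of GSK591, where the median of all RI rows was 0.015, 0.0196 and 0.00762. It was 0.00297 and 0.00618 for co-treatment, against 0.0161 on both days over all rows, and -0.00233, -0.00164 and -0.00254 for MS023, against -0.00316, -0.00404 and -0.00596. Of the 21 canonical introns, all of them tested, 6 rose and 1 fell after 2 days of GSK591 (32.2% and 1.91% of all canonical introns tested), 9 and 1 after 4 days (44.8% and 3.14%) and 2 and 1 after 7 days (28.1% and 5.88%). Co-treatment raised 8 after 2 days (40.9%; 4.08% of all fell) and 10 after 4 days (44.8%; 5.21% fell). Under MS023 1 fell at 2 days (1.73% of all rose and 4.99% fell), 1 rose and 1 fell at 4 days (2.0% and 6.77%), and 1 rose and 3 fell at 7 days (2.17% and 12%). The one canonical intron that fell under GSK591 was intron 5 of PSMA1 at each time.

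**Figure D2:**
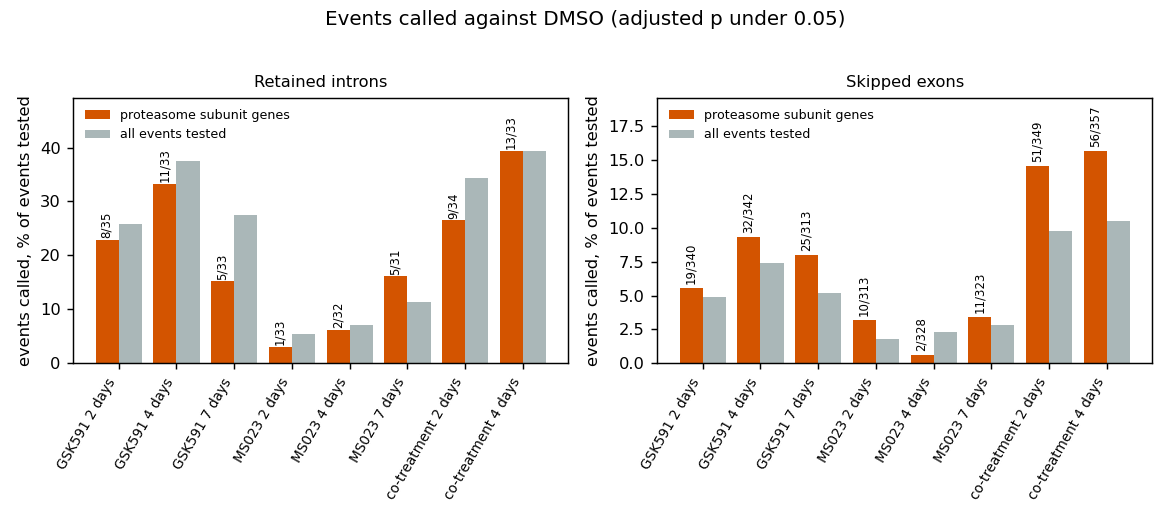
Share of tested events called against DMSO (y axis, percent) in 8 comparisons, for RI rows on the left and SE rows on the right, in proteasome subunit genes (orange, with the count of called and tested rows) and in all genes (grey). The RI share of proteasome subunit genes runs from 3.03% to 39.4% and their SE share from 0.61% to 15.7%, and the difference from all genes was not tested.

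In the α ring, intron 5 of PSMA1 moved in opposite directions under the 2 inhibitors. PSMA1 encodes one of the subunits that line the entry of the core. Ψ was 0.0635, 0.0601 and 0.059 in DMSO of 4 days, 0.0338, 0.0369 and 0.04 after 2 days of GSK591 and 0.0458, 0.0463 and 0.0471 after 4 days. It was 0.061, 0.0682 and 0.0709 after 2 days of MS023, 0.0771, 0.0717 and 0.0796 after 4 days, and 0.0784, 0.0704 and 0.0774 after 7 days against 0.0403, 0.0389 and 0.0566 in DMSO of 7 days. The GSK591 libraries of 2 and 4 days lay below all DMSO libraries, and the MS023 libraries of 4 and 7 days above them. ΔΨ was -0.024 ± 0.0022 and -0.0145 ± 0.0014 under GSK591 (adjusted p = 1.63e-06 and 0.000352), and 0.0153 ± 0.0027 and 0.0301 ± 0.0062 under MS023 at 4 and 7 days (0.00753 and 2.12e-07).

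Directly compared, PSMA1 intron 5 was lower with GSK591 than with MS023 by 0.0298 ± 0.0034, 0.0297 ± 0.0024 and 0.0398 ± 0.0032 at 2, 4 and 7 days (adjusted p = 9.6e-08, 1.26e-09 and 3.83e-19). Co-treatment lay between them, at ΔΨ of -0.0037 ± 0.0016 and 2.66e-05 ± 0.0018 from DMSO, neither called, and was higher than GSK591 alone by 0.0203 ± 0.0019 and 0.0145 ± 0.0012 (0.000102 and 0.000864). Limma did not call this last difference (0.312 and 0.301), and with the prior from all events it was called at 4 days (0.0376) and not at 2 days (0.0753). Limma kept the differences from MS023 (0.0312, 0.023 and 0.0096). The groups overlapped at 7 days of GSK591, where the call (ΔΨ -0.0097 ± 0.006, adjusted p = 0.0264) was lost without DMSO c or GSK591 c (up to 0.369), and that at 4 days of MS023 without MS023 c (0.0615). Limma kept none of the 5 calls against DMSO (0.076 to 0.456).

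In the β ring, intron 5 of PSMB4, whose product is a structural β subunit, rose under GSK591 and co-treatment and fell under MS023. Ψ was 0.0209, 0.0305 and 0.0249 in DMSO of 4 days. It reached 0.0398, 0.0431 and 0.0493 after 2 days and 0.0481, 0.0518 and 0.0528 after 4 days of GSK591. Under MS023 it was 0.0186, 0.0165 and 0.017 after 2 days, 0.0144, 0.0138 and 0.0163 after 4 days and 0.0155, 0.0148 and 0.0151 after 7 days. No library of these groups overlapped with its DMSO, which at 7 days stood at 0.0345, 0.0196 and 0.0345.

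ΔΨ of PSMB4 intron 5 was 0.0186 ± 0.0039 and 0.0255 ± 0.0031 at 2 and 4 days of GSK591 (adjusted p = 0.000692 and 1.35e-06) and 0.0017 ± 0.0051 at 7 days, not called. Co-treatment gave 0.0228 ± 0.0058 and 0.026 ± 0.0038 (9.02e-06 and 2.15e-07), and MS023 gave -0.0081 ± 0.0029, -0.0106 ± 0.0029 and -0.0144 ± 0.005 at 2, 4 and 7 days (0.0329, 0.00378 and 0.000171). GSK591 exceeded MS023 by 0.0267 ± 0.0029, 0.0361 ± 0.0016 and 0.0161 ± 0.0013 on the 3 days (3.12e-07, 1.3e-13 and 1.77e-07). The 2-day MS023 call was lost without DMSO b or any one MS023 library (up to 0.351). Of the calls against DMSO, limma kept only those at 4 days of GSK591 and co-treatment (0.0218 and 0.0213). The direct difference between GSK591 and MS023 at 2 days was kept in limma (0.01).

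Intron 2 of PSMB8, an immunoproteasome peptidase, rose with co-treatment. Ψ was 0.0229, 0.038 and 0.0263 in DMSO, 0.0876, 0.0922 and 0.0748 after 2 days and 0.105, 0.115 and 0.102 after 4 days of co-treatment. The row rested on 91 to 226 reads in these libraries, and all co-treated libraries lay above DMSO. ΔΨ was 0.0559 ± 0.0069 (adjusted p = 0.00857) and 0.0785 ± 0.006 (0.000154), both kept in limma, the first lost without co-treatment b (0.0538). GSK591 alone gave 0.0434 ± 0.0056 and 0.0409 ± 0.012 at 2 and 4 days, with no overlap with DMSO and adjusted p of 0.0565 and 0.0552. PSMB10 intron 3 (chr16:67970007-67970117, minus strand), in the gene of another immunoproteasome peptidase, stood at 0.364, 0.199 and 0.112 after 4 days of GSK591 against 0.0739, 0.102 and 0.0309 in DMSO on 53 to 95 reads, and its call (ΔΨ 0.156 ± 0.077, 0.0105) was lost without GSK591 a or DMSO c (up to 0.164) and in limma (0.0856).

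Among the ATPases, intron 8 of PSMC4 rose in all GSK591 and co-treatment groups. Ψ was 0.0262, 0.0273 and 0.0261 in DMSO of 4 days, 0.051, 0.0443 and 0.0381 after 2 days and 0.052, 0.0479 and 0.0566 after 4 days of GSK591, and 0.0666, 0.0609 and 0.0536 after 7 days against 0.0347, 0.0334 and 0.0376. All GSK591 libraries lay above all DMSO libraries. ΔΨ was 0.018 ± 0.0038, 0.0257 ± 0.0026 and 0.0252 ± 0.004 (adjusted p = 0.000162, 1.19e-07 and 2.58e-07), with 0.0275 ± 0.0019 and 0.0305 ± 0.0026 for co-treatment (6.85e-08 and 4.18e-09). Each call was kept without any one library, and limma kept the 4-day GSK591 call and both co-treatment calls but not those at 2 days (0.0868) and 7 days (0.053) of GSK591. Under MS023 the ΔΨ of -6.21e-05 ± 0.0016, -0.0045 ± 0.00057 and -0.0056 ± 0.0037 were not called.

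**Figure D3:**
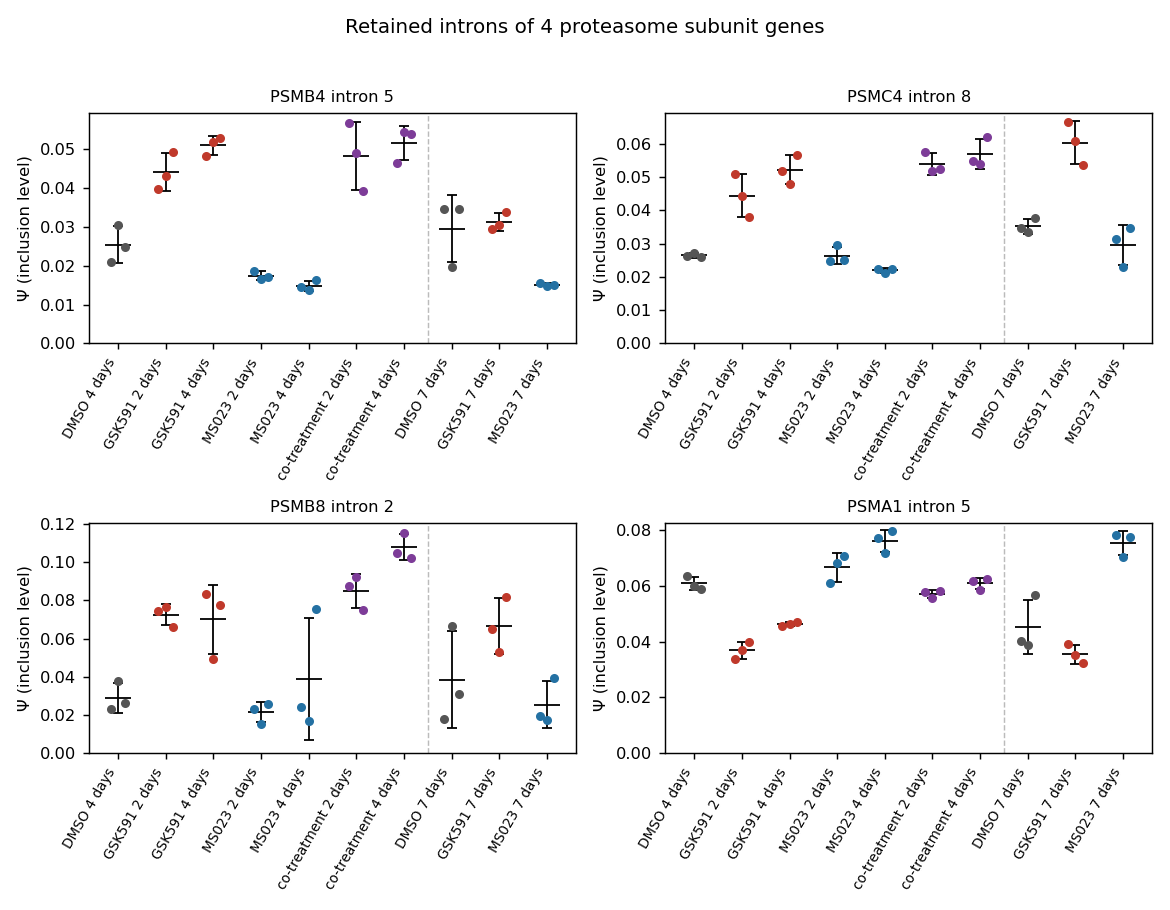
Inclusion level Ψ (y axis, from 0, own scale in each panel) of 4 retained introns in each of 3 libraries of 10 groups (points), with the mean and SD (lines). PSMB4 intron 5 and PSMC4 intron 8 lie higher under GSK591 (red) than DMSO (grey) at 2 and 4 days, PSMB8 intron 2 is highest in co-treatment (purple), and PSMA1 intron 5 is lower under GSK591 and higher under MS023 (blue) at 4 days.

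In the regulatory particle, all 3 RI rows of PSMD4, which encodes a ubiquitin receptor, were called in at least 1 comparison with DMSO. So were 17 of the 35 tested RI rows of proteasome subunit genes, and this share was not computed for all RI rows. The PSMD4 rows include overlapping forms of intron 7, so they are not all separate introns. A form of PSMD4 intron 7 that starts at a 5′ splice site further downstream (chr1:151238598-151238783) had a ΔΨ of 0.0887 ± 0.014 after 4 days of co-treatment (adjusted p = 0.0186, kept in limma, lost without co-treatment a or DMSO b, up to 0.0699). This form lies within intron 7 (chr1:151238589-151238783). Transcripts spliced at the 5′ site of intron 7 belong to neither form of the row, so its Ψ is not a share of all PSMD4 transcripts. GSK591 exceeded MS023 at 2 days by 0.105 on this row and by 0.0113 on intron 7. In PSME2, a subunit of the interferon-inducible activator, the intron chr14:24614982-24615416 (intron 2, minus strand) had a ΔΨ of 0.0119 ± 0.0062 at 4 days and 0.0102 ± 0.0023 at 7 days of GSK591 (0.0246 and 0.00143), 0.0201 ± 0.0092 at 4 days of co-treatment (0.00159) and -0.0066 ± 0.0025 at 7 days of MS023 (0.0374). None of these was kept in limma (0.153 to 0.415), and the first and the last were lost without a single library (DMSO c or GSK591 c, and DMSO c or any one MS023 library). PSME2 intron 3 (chr14:24614675-24614918) gave 0.0128 ± 0.0039 at 4 days of GSK591 (0.00242; limma 0.0621), and -0.0049 ± 0.0027 at 7 days of MS023 (0.0349; limma 0.304; lost without DMSO c or any one MS023 library, up to 0.461). A row of PSME2 that spans skipped exons (chr14:24614675-24615416) had a ΔΨ of -0.256 ± 0.028 at 4 days of co-treatment (0.00154; limma 0.0105). Its spliced form had 1, 0 and 1 of 178, 194 and 124 reads in DMSO of 4 days. There 0 of 194 reads allows a spliced share of up to 1.55% (3 counts, counting error only). The spliced form of this row is the junction from exon 2 to exon 4, which also counts as skipping in SE rows. Transcripts that splice exon 3 in belong to neither form, so Ψ of this row is not a share of all PSME2 transcripts. A row that ends at another 3′ splice site (chr14:24615106-24615416) had a ΔΨ of -0.118 ± 0.047 at 7 days of GSK591 (0.0434, in limma 0.165). That call was lost without DMSO a, DMSO c, GSK591 b or GSK591 c (up to 0.261). Transcripts spliced at the 3′ site of intron 2 belong to neither form of this row.

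Most of the skipped exons of proteasome subunit genes called against DMSO after GSK591 and co-treatment were lower. The share called is given beside that of all SE rows, and the difference between these shares was not tested. Of 340 tested rows 19 were called at 2 days of GSK591 (5.59%, against 4.91% of all SE rows), 1 higher and 18 lower (all rows: 0.872% higher, 4.04% lower). At 4 days 32 of 342 were called (9.36% against 7.38%), 4 higher and 28 lower (1.66% and 5.72% of all rows). At 7 days 25 of 313 were called (7.99% against 5.16%), 6 higher and 19 lower (2.13% and 3.02% of all rows). At each of these times more rows fell than rose, in these genes and among all SE rows. Co-treatment for 2 days gave 51 of 349 (14.6% against 9.75%), 5 higher and 46 lower (1.6% and 8.14% of all rows). Co-treatment for 4 days gave 56 of 357 (15.7% against 10.5%), 8 higher and 48 lower (2.85% and 7.67% of all rows). MS023 for 2 days gave 10 of 313 (3.19% against 1.79%), 4 higher and 6 lower (0.484% and 1.31% of all rows). Under MS023 alone the share called was above that of all SE rows at 2 and 7 days and below it at 4 days. After 4 days 2 of 328 were called (0.61% against 2.27%; 0.765% of all rows rose and 1.5% fell), both higher, in PSMB5 and in exon 4 of PSME4. The PSME4 call (ΔΨ 0.0303, adjusted p = 0.0219) was lost without MS023 a or b or DMSO b (up to 0.332) and in limma (0.205). Its skipping reads under MS023 numbered 0, 0 and 1 of 292, 364 and 302. After 7 days 11 of 323 were called (3.41% against 2.79%), 5 higher and 6 lower (1.41% and 1.38% of all rows). Several rows can share 1 exon or 1 junction, so rows are not independent counts.

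Over all comparisons with DMSO, 79 different exons were called at least once of 327 tested (24.2%, against 15.9% of the 82324 exons tested in the series), and 16 of them in at least 4 comparisons (4.89% against 3.87%). The difference between these shares was not tested. Of the 79, 59 were exons of the canonical transcript, 58 of these in coding sequence, and 27 of the 58 had a length that is a multiple of 3. By role, 14 of 55 tested exons were called in the α ring, 14 of 32 in the β ring, 7 of 53 in the ATPases, 22 of 117 in the PSMD genes, 18 of 53 in the activators, 1 of 4 in the inhibitor PSMF1 and 3 of 13 in the assembly chaperones. Genes with no exon called in any comparison included PSMC3, PSMC4 and PSMC6 of the base and PSMD5, PSMD6 and PSMD7.

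PSMA4, an α subunit, lost its exon 4 under GSK591. Exon 4 (163 bases, of 9 exons) is not a multiple of 3, nor is its inner form of 70 bases, and both rows and an A5SS row share the junction from exon 3 to exon 5. Ψ of the full exon was 0.973, 0.977 and 0.969 in DMSO of 4 days, 0.918, 0.905 and 0.909 after 2 days and 0.904, 0.896 and 0.888 after 4 days of GSK591, and 0.79, 0.828 and 0.822 after 7 days against 0.912, 0.923 and 0.941. No GSK591 library overlapped with its DMSO. ΔΨ was -0.062 ± 0.0045, -0.077 ± 0.0052 and -0.112 ± 0.014 (adjusted p = 7.01e-35, 2.97e-46 and 2e-56), and -0.045 ± 0.004 and -0.036 ± 0.0032 after 2 and 4 days of co-treatment (2.15e-20 and 2.54e-11).

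The inner form of PSMA4 exon 4 gave larger ΔΨ on fewer reads, 842 to 2180 a library. Its row sets the inner form against the same skipping junction as the full exon, so its Ψ is not a share of all PSMA4 transcripts. On the odds scale both rows moved by similar amounts under GSK591. The log2 odds moved by -2.07 for the full exon and -2.17 for the inner form at 4 days, and by -1.5 and -1.32 at 7 days. Its Ψ was 0.917, 0.936 and 0.893 in DMSO of 4 days, 0.785, 0.734 and 0.761 after 2 days and 0.732, 0.704 and 0.707 after 4 days of GSK591. At 7 days it was 0.439, 0.489 and 0.48 under GSK591 and 0.633, 0.672 and 0.759 in DMSO. ΔΨ was -0.155 ± 0.019, -0.201 ± 0.015 and -0.218 ± 0.04 (2.48e-31, 9.76e-46 and 2.5e-30). MS023 moved both forms the other way at 7 days, by 0.028 ± 0.0086 and 0.113 ± 0.038 (4.32e-07 and 7.7e-09), while at 2 and 4 days its ΔΨ of -0.018 to 0.0102 on the inner form was not called.

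The DMSO groups themselves differed here. Ψ of the inner form was lower in DMSO of 7 days than of 4 days by -0.228 ± 0.039 (adjusted p = 2.52e-51) and that of the full exon by -0.0475 ± 0.0087 (5.27e-24), next to ΔΨ of -0.218 and -0.112 under GSK591 at 7 days. Both DMSO differences held without any one library and were lost in limma (0.182 and 0.238) and with the prior from all events (0.727 for each). All PSMA4 exon 4 calls held without any one library, and none of them in limma (0.114 to 0.691). Intron 3 of PSMA4 (chr15:78834562-78834824), just upstream of this exon, rose from 0.0115, 0.0111 and 0.0111 in DMSO to 0.0238, 0.027 and 0.0257 after 4 days of GSK591, a ΔΨ of 0.0142 ± 0.00094 (2.51e-07; limma 0.00828), and by 0.0125 ± 0.002 after 4 days of co-treatment (8.98e-07).

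PSMC5, an ATPase of the base, lost exon 5 (57 bases, a multiple of 3, of 12 exons) under GSK591 and under co-treatment. Ψ was 0.989, 0.984 and 0.986 in DMSO of 4 days, 0.913, 0.916 and 0.922 after 2 days and 0.885, 0.891 and 0.888 after 4 days of GSK591, and 0.903, 0.909 and 0.88 after 7 days against 0.988, 0.982 and 0.982. Co-treatment gave 0.878, 0.87 and 0.861 at 2 days and 0.872, 0.883 and 0.889 at 4 days. None of these groups overlapped with DMSO. ΔΨ was -0.069 ± 0.0029, -0.098 ± 0.0022 and -0.086 ± 0.009 under GSK591 (adjusted p = 1.32e-38, 2.07e-60 and 4.42e-63) and -0.117 ± 0.0053 and -0.105 ± 0.0053 under co-treatment (8.92e-75 and 1.84e-32).

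Under MS023 the ΔΨ of PSMC5 exon 5 was -0.0039 ± 0.0028, -0.0023 ± 0.0031 and 0.0031 ± 0.0029, none called. Co-treatment was lower than GSK591 alone by -0.0474 ± 0.0057 at 2 days (5.66e-06; limma 0.546, prior from all events 0.205), and at 4 days the difference of -0.0065 ± 0.0053 was not called (0.854). The calls against DMSO held without any one library, and limma kept those at 4 days of GSK591 and at both co-treatment times (0.0372, 0.0195 and 0.0177) but not those at 2 and 7 days of GSK591 (0.113 and 0.0671).

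In the β ring, an exon of PSMB3 was skipped more often under GSK591 at 2 and 4 days and under co-treatment. Exon 4 of PSMB3 (chr17:36916684-36916861, 178 bases, plus strand) and a form of 101 bases that starts at an inner 3′ splice site (36916761) are counted against the same skipping junction. Ψ of the inner form is therefore not a share of all PSMB3 transcripts, and its ΔΨ is larger than that of the full exon. After 4 days of GSK591 the log2 odds moved by -0.875 for the full exon and by -0.891 for the inner form. Ψ of the inner form was 0.826, 0.827 and 0.858 in DMSO of 4 days, 0.736, 0.756 and 0.775 after 2 days and 0.739, 0.747 and 0.718 after 4 days of GSK591. Under co-treatment it was 0.647, 0.656 and 0.631 at 2 days and 0.703, 0.654 and 0.648 at 4 days. Both groups lay below DMSO. ΔΨ was -0.0815 ± 0.016 and -0.102 ± 0.014 under GSK591 (adjusted p = 1.16e-06 and 3.46e-08) and -0.192 ± 0.013 and -0.169 ± 0.02 under co-treatment (2.91e-27 and 1.05e-15).

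Co-treatment was below GSK591 alone for this PSMB3 form by -0.111 ± 0.014 and -0.0666 ± 0.019 (6.15e-08 and 0.0075), and below MS023 alone by -0.146 ± 0.0098 and -0.14 ± 0.021 (3.18e-15 and 1.18e-14). Limma called none of these 4 differences (0.525, 0.639, 0.152 and 0.131), and with the prior from all events only that from MS023 at 2 days was called (0.228, 0.409, 0.0305 and 0.0596). The difference from GSK591 at 4 days was also lost without GSK591 b or co-treatment b or c (up to 0.0947). At 7 days GSK591 gave 0.735, 0.754 and 0.763, and DMSO 0.765, 0.748 and 0.748 (ΔΨ -0.003 ± 0.01, not called), and DMSO of 7 days was itself below DMSO of 4 days by -0.0834 ± 0.012 (9.4e-05). The full exon gave ΔΨ of -0.0319 ± 0.0048, -0.0356 ± 0.0038, -0.0713 ± 0.0041 and -0.0667 ± 0.0063 in the same 4 comparisons (8.05e-09, 6.84e-09, 1.51e-29 and 1.85e-18), and -0.0174 ± 0.0032 at 2 days of MS023, a call lost when any one library but DMSO a was left out (up to 0.216). Limma kept no PSMB3 call (0.183 to 0.778).

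PSMB9, an immunoproteasome peptidase, lost exon 3 (132 bases, a multiple of 3) under co-treatment. Ψ was 0.971, 0.995 and 0.979 in DMSO of 4 days, and 0.867, 0.794 and 0.827 after 2 days and 0.828, 0.853 and 0.843 after 4 days of co-treatment, all below DMSO. ΔΨ was -0.152 ± 0.022 and -0.14 ± 0.01 (adjusted p = 1.64e-08 and 6.86e-07), kept in limma and without any one library. GSK591 alone gave -0.0517 ± 0.0093, -0.0633 ± 0.022 and -0.0147 ± 0.01 at 2, 4 and 7 days, of which only that at 4 days was called (0.00676), and that call was lost without GSK591 a or b or DMSO b (up to 0.123) and in limma (0.181). Co-treatment was below GSK591 by -0.1 ± 0.022 at 2 days (0.014; lost without GSK591 a or co-treatment b or c, up to 0.229, in limma, 0.314, and with the prior from all events, 0.334) and by -0.0769 ± 0.022 at 4 days, which was not called (0.137).

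PSMB5, a constitutive peptidase subunit, has an exon of 85 bases outside the canonical transcript (chr14:23496954-23497038, minus strand) that moved in opposite directions under the 2 inhibitors. Ψ was 0.0245, 0.0221 and 0.0293 in DMSO of 4 days, 0.0123, 0.0136 and 0.00972 after 2 days of GSK591 and 0.0538, 0.0514 and 0.049 after 2 days of MS023, with no overlap. MS023 raised it by 0.0261 ± 0.0025, 0.0237 ± 0.0022 and 0.0306 ± 0.0067 at 2, 4 and 7 days (adjusted p = 7.16e-11, 4.09e-09 and 3.87e-16). GSK591 lowered it by -0.0134 ± 0.0024 and -0.0125 ± 0.0022 at 2 and 4 days (3.85e-06 and 3.22e-05), and its ΔΨ of -0.00049 ± 0.0046 at 7 days was not called. Co-treatment gave -0.0102 ± 0.0025 at 2 days (0.00192, lost without co-treatment b, 0.0538) and -0.0032 ± 0.0031 at 4 days, not called. Limma kept none of these calls (0.421 to 0.673).

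Exon 5 of PSMD4 (69 bases) had a ΔΨ of -0.0202 ± 0.0054 at 2 days of MS023 and of -0.0293 ± 0.0026 and -0.0186 ± 0.0021 at 2 and 4 days of co-treatment (adjusted p = 0.000273, 7.18e-07 and 0.00108; limma 0.0909 to 0.528). Exon 4 of PSME3 (105 bases), the gene of the nuclear activator subunit, was lower in the same comparisons, with Ψ of 0.953, 0.953 and 0.974 after 2 days of co-treatment against 0.995, 0.989 and 0.997 in DMSO (ΔΨ -0.0341, 2.22e-12; limma 0.0534). Its ΔΨ was -0.0139 at 2 days of MS023, -0.0192 at 4 days of co-treatment and -0.0154 at 7 days of MS023 (0.00543, 0.000229 and 0.00176; limma 0.513, 0.102 and 0.361). The 2-day MS023 call was lost without DMSO a or c or MS023 b (up to 0.125), and that at 7 days without MS023 c (0.0513). An exon of PSMG4, an assembly chaperone, that is outside the canonical transcript was higher after 4 days of co-treatment, at 0.257, 0.12 and 0.153 against 0.089, 0.0786 and 0.0501 (ΔΨ 0.104 ± 0.043, 0.028), but was called with only 1 of the 6 libraries left out (up to 0.329).

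In the direct comparison, RI rows of proteasome subunit genes were mostly higher with GSK591 than with MS023, as were RI rows in general. At 2 days 13 of 34 rows were called, 11 higher and 2 lower (all rows: 33.8% called, 30.4% higher, 3.42% lower). At 4 days 14 of 32 were called, 12 higher and 2 lower (44.5%, 39.9% and 4.54% of all rows). At 7 days 12 of 31 were called, 9 higher and 3 lower (39.1%, 32.2% and 6.87%). Their SE rows were called in 26 of 277, 34 of 270 and 37 of 255 (8.36%, 11.9% and 9.43% of all SE rows).

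When MS023 was added to GSK591, the share of RI rows called in proteasome subunit genes was above that of all RI rows, a difference that was not tested. At 2 days 3 of 35 RI rows were called (8.57%), all higher (3.45% of all rows, 1.84% higher and 1.61% lower). At 4 days 4 of 33 were called (12.1%), 3 higher and 1 lower (8.54%, 3.57% and 4.97% of all rows). The PSMD11 and PSME2 rows among them span skipped exons and are not introns of an annotated transcript. The rows that rose at both times were PSMA1 intron 5, PSMD11 and intron 2 of PSMC5 (chr17:61905570-61906853, by 0.0046 ± 0.0012 and 0.0064 ± 0.0012; adjusted p = 0.00927 and 7.93e-06), the last named after its values were seen. The row that fell was PSME2 chr14:24614675-24615416 (-0.228 ± 0.059, 0.0139). Its spliced form had 8, 0 and 0 of 256, 226 and 296 reads after 4 days of GSK591. Limma kept none of the 3 calls at 2 days and 1 of the 4 at 4 days, the PSMD11 row (0.0447), and the prior from all events kept none and 2, PSMD11 (0.0108) and PSMA1 (0.0376). Without one library the 2-day calls of PSMD11 (co-treatment a or b) and PSMC5 (co-treatment b or c) and the PSME2 call (GSK591 b or c) were lost (up to 0.11, 0.106 and 0.103). Of SE rows 16 of 295 were called at 2 days and 21 of 297 at 4 days (3.41% and 4.34% of all SE rows). Of the 17 and 37 events of the other types called at 2 and 4 days, 0 and 0 were called in limma, and 0 and 0 with the prior from all events. Adding GSK591 to MS023 changed 15 of 34 RI rows at 2 days, 13 higher and 2 lower (38.6%, 34.7% and 3.89% of all rows), and 20 of 32 at 4 days, 17 higher and 3 lower (43.7%, 38.8% and 4.92%). It changed 41 of 281 SE rows at 2 days and 37 of 279 at 4 days (9.6% and 12.2% of all SE rows).

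The DMSO groups of 7 and 4 days differed in 5 of 33 RI rows (8.07% of all RI rows) and 5 of 326 SE rows (1.43% of all SE rows), and the SE rows of PSMA4 exon 4 and of PSMB3 were among the latter. The RI rows were PSMA1 intron 5 (-0.0156 ± 0.0058, adjusted p = 0.0166), PSMC4 intron 8 (0.0087 ± 0.0013, 0.0351), PSMC5 intron 2, a row of PSMA4 and a row of PSMD10, the last 3 named after their values were seen. None of the 5 was called in limma or with the prior from all events, that of PSMC4 was lost without any one library (up to 0.121) and that of PSMA1 without DMSO a of 4 days or a or b of 7 days (up to 0.121). Of the other types, 43 of 94 MXE rows (22.2% of all MXE rows), 1 of 37 A3SS rows (1.99%) and 2 of 16 A5SS rows (2.76%) were called. The 43 MXE rows (45.7% of those tested) compare with 0 to 12 called in each comparison of an inhibitor with DMSO, and of them 29 were higher and 14 lower at 7 days. These shifts lie in the DMSO libraries that the 7-day comparisons use, and days in culture cannot be told apart there from other differences between the groups.

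Whether the effect of an inhibitor differed between 7 and 4 days, each against its own DMSO, was tested as an interaction. For GSK591 2 of 33 RI rows (6.28% of all RI rows), 7 of 241 SE rows (1.78%), 0 of 33 A3SS rows (1.15%; 2 had an unadjusted p under 0.05), 1 of 16 A5SS rows (2.96%) and 2 of 56 MXE rows (1.8%) were called. PSMB4 intron 5 was among them, with a ΔΨ of 0.0255 at 4 days and 0.0017 at 7 days (adjusted p = 0.0153). For MS023 the quasi-binomial test called 0 of 30 RI, 241 SE, 32 A3SS, 16 A5SS and 51 MXE rows (0.295%, 0.108%, 0.055%, 0.196% and 0.142% of all rows of these types), with 3, 17, 0, 4 and 9 at an unadjusted p under 0.05.

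Among the other event types, an A5SS row of PSMA4 counts the same junction as its exon 4 and gave a ΔΨ of -0.164 ± 0.014, -0.193 ± 0.013 and -0.23 ± 0.039 after 2, 4 and 7 days of GSK591 (adjusted p = 1.07e-32, 9.68e-21 and 3.67e-44; limma 0.0697, 0.031 and 0.102). Another A5SS row, at the end of PSMA4 exon 1 (chr15:78832806-78832881), had a ΔΨ of -0.02 ± 0.0073, -0.0263 ± 0.0097 and -0.0154 ± 0.0022 after 2, 4 and 7 days of GSK591 (0.0167, 0.0015 and 0.00776). Co-treatment for 2 and 4 days gave -0.0313 ± 0.0095 and -0.0437 ± 0.0041 (9.22e-05 and 4.28e-07) and MS023 for 2 days -0.0207 ± 0.0065 (0.0351). The GSK591 calls were lost without DMSO a or GSK591 b at 2 days, GSK591 c at 4 days and GSK591 b at 7 days (up to 0.195, 0.0531 and 0.0522), the MS023 call without DMSO a or MS023 b or c (up to 0.385), and limma kept none of the 6 (0.07 to 0.602). Of A5SS rows 3 of 18, 4 of 16 and 3 of 16 were called after 2, 4 and 7 days of GSK591 (15.4%, 21.4% and 14.3% of all A5SS rows), 1 of 16, 0 of 17 and 2 of 16 with MS023 (3.07%, 3.68% and 5.29%) and 4 of 17 and 8 of 18 with 2 and 4 days of co-treatment (19.4% and 22.1%). Few A3SS rows moved. They numbered 0 of 37, 3 of 34 and 2 of 37 with GSK591 (4.47%, 7.79% and 6.22% of all A3SS rows), 0 of 34, 0 of 36 and 1 of 36 with MS023 (1.74%, 2.33% and 3.14%) and 2 of 32 and 4 of 32 with co-treatment (8.2% and 11.1%). Of MXE rows 5 of 115, 10 of 108 and 8 of 84 were called with GSK591 (1.75%, 7.19% and 5.4% of all MXE rows), 0 of 89, 0 of 102 and 3 of 87 with MS023 (0.999%, 1.43% and 2.6%) and 12 of 111 and 10 of 116 with co-treatment (7.92% and 9.52%). Where the quasi-binomial test called 0 rows, those at an unadjusted p under 0.05 numbered 3 A3SS rows at 2 days of GSK591, 3 and 6 A3SS rows at 2 and 4 days of MS023, 3 A5SS rows at 4 days and 13 MXE rows at each of 2 and 4 days of MS023. Limma called no event of these 4 types at 2 or 4 days of MS023. Of the named A3SS and MXE calls limma kept 1 of 11 and 1 of 15. PSMD13 chr11:244041-244160 (A3SS) had a ΔΨ of 0.0334 ± 0.0079 and 0.034 ± 0.008 at 2 and 4 days of co-treatment (adjusted p = 7.36e-05 and 5.11e-05, in limma 0.0474 and 0.0641). This segment covers exon 3 and intron 3 of PSMD13, and the form without it is the junction from exon 2 to exon 4, which skips exon 3. Exon 3 was itself called higher as a skipped exon in 3 comparisons, so the A3SS row is not a separate observation. An MXE row of PSMD11 exons 10 and 11 gave 0.226 ± 0.018 at 7 days of GSK591 (1.84e-08; limma 0.00803). This MXE row also counts the junction from exon 10 to exon 12, so it is not a separate observation.

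Of 27 other genes of the pathway (assembly factors, shuttles, deubiquitinases and transcription factors of proteasome genes), 23 had an event and 7 an RI row. Of their 8 RI rows 1, 5 and 2 were called after 2, 4 and 7 days of GSK591, all higher but 1 that fell at 7 days (12.5%, 62.5% and 25.0%, beside 25.8%, 37.5% and 27.5% of all RI rows). Co-treatment for 2 and 4 days raised 3 and 5 of 8 (37.5% and 62.5%, beside 34.4% and 39.3%). MS023 gave 0 of 8 at each time in the quasi-binomial test, with 0, 0 and 2 at an unadjusted p under 0.05 (5.42%, 7.1% and 11.4% of all RI rows). Limma called 0, 1 and 1 for GSK591, 0, 0 and 0 for MS023 and 0 and 4 for co-treatment. In UBQLN1, a ubiquitin shuttle, Ψ of the intron chr9:86281349-86284099 was 0.00942, 0.0112 and 0.00816 in DMSO and 0.0141, 0.0144 and 0.0153 after 2 days of GSK591, all above DMSO (ΔΨ 0.005 ± 0.00096, adjusted p = 0.00226, not kept in limma). After 2, 4 and 7 days of GSK591 4.51%, 5.11% and 6.84% of their SE rows were called (4.91%, 7.38% and 5.16% of all SE rows), with MS023 2.22%, 2.21% and 5.08% (1.79%, 2.27% and 2.79%) and with 2 and 4 days of co-treatment 12.2% and 10.7% (9.75% and 10.5%).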

How the data were processed

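RNA was sequenced from A549 cells in 30 libraries, 3 in each of 10 groups. The authors trimmed the reads of stranded poly(A) libraries, aligned them to hg19 with STAR 2.4.2a (Trim Galore 0.6.5, Picard 2.3.0 and deepTools 3.3.1 are also in the submitters' processing notes) and called events with rMATS 4.0.2. They deposited, per event and library, the read counts of both forms, the lengths of the forms and the inclusion level. Their columns of p-values, FDR and differences were not used. Ψ was recomputed from the counts and differed from the deposited level by at most 5e-04 over 6252703 values. DMSO counts agreed between tables in all 693643 rows compared.

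Events with at least 10 reads in every library were tested with a quasi-binomial model whose dispersion was moderated by squeezeVar of limma 3.58.1 (R 4.3.3) and held at 1 or above, with Benjamini-Hochberg adjustment within event type and comparison. The prior of the dispersion was estimated from events with at least 6 reads of each form, a change made after the test on simulated data, since the prior over all events had collapsed. Alternatives were limma on the log2 odds (pseudocount 0.5), minimums of 20 and 1 reads, a dispersion not held at 1, adjustment over all 5 event types, the prior over all events (added after the data were seen) and leaving out each library. Exons and introns were matched to GENCODE 44 on GRCh37. Selected for naming were, per comparison with DMSO, the 4 RI, 4 SE and 2 events of each other type with the largest |ΔΨ| among called events with at least 20 reads in every library, the largest called RI per role, and all PSMD11 RI and called SE. Values of some selected events are not printed. The genes and lists were chosen with earlier results of these data known. Read counts are not independent molecules, so floors cover counting error only.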

Additional observations from a re-analysis of the deposited data

Results flagged for a closer look

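Each result given here was flagged because the effect of GSK591 differed between 7 and 4 days, tested as an interaction with each time against its own DMSO. In PSMA4, exon 4 gave a ΔΨ of -0.0767 at 4 days and -0.112 at 7 days (adjusted p = 0.046), its inner form -0.201 and -0.218 (0.00118), and the A5SS row that shares their junction -0.193 and -0.23 (0.0348). The test compares odds, and on that scale each of these 3 shifts was smaller at 7 days: the log2 odds moved by -2.07 and -1.5 for exon 4, by -2.17 and -1.32 for the inner form and by -2.03 and -1.4 for the A5SS row at 4 and 7 days. Mean Ψ of the inner form in DMSO was 0.915 at 4 days and 0.688 at 7 days. An MXE row of PSMA4 (chr15:78834825-78836609) gave -0.0427 and -0.101 (0.0129; log2 odds -0.24 and -0.643, larger at 7 days), and PSMA4 intron 3 gave 0.0142 and 0.0022 (0.044).

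In PSMB3, exon 4 gave a ΔΨ of -0.0356 at 4 days and -0.0069 at 7 days (adjusted p = 0.00524), its inner form -0.102 and -0.003 (0.000917), and an MXE row (chr17:36912136-36916861) 0.0317 and -0.0245 (0.00457). Mean Ψ of the inner form in DMSO was 0.837 at 4 days and 0.754 at 7 days. PSMB4 intron 5 gave 0.0255 and 0.0017 (0.0153).

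In PSMC5, 3 forms of an exon outside the canonical transcript that end at chr17:61905283 were included more at 7 days of GSK591. The longest form had a ΔΨ of 0.0031 at 4 days and 0.0581 at 7 days (adjusted p = 2.32e-06), the middle form 0.003 and 0.0448 (0.000746) and the shortest 0.0032 and 0.0414 (0.0023). These forms overlap one another, so they are not separate observations. The part that the differences between the DMSO groups have in these results was not tested.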

How the results depend on the processing

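No paired analysis was possible because the libraries of a group stand in one cell of the deposited tables with no replicate number. Direction reversed for no named event under any alternative run. Of 32 counts of called events, those within 1.5 times the reported value numbered 32 with minimums of 20 or 1 reads or without holding the dispersion at 1, 28 with adjustment over all 5 event types, 19 with the prior of the dispersion over all events (chosen after seeing the data) and 3 in limma. Limma kept 27 of 136 named calls, and the cause of the loss was not tested. Few reads limit the rows of PSMB8, PSMB10 and PSMD11 listed as RI, and few spliced reads the PSME2 row that spans skipped exons.

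Retained introns called in limma on the log2 odds numbered 3, 7 and 1 for GSK591 at 2, 4 and 7 days (8, 11 and 5 in the reported test), 0, 0 and 0 for MS023 (1, 2 and 5) and 5 for 2 days of co-treatment (9). They numbered 8 for GSK591 against MS023 at 2 days (13), 0 and 1 for co-treatment against GSK591 (3 and 4), 8 and 11 for co-treatment against MS023 (15 and 20) and 0 between the DMSO groups (5). Events of the other types numbered 1, 13 and 4 for GSK591 (27, 49 and 38), 0, 0 and 0 for MS023 (11, 2 and 17), 30 and 33 for co-treatment (69 and 78), 7, 28 and 18 for GSK591 against MS023 (36, 49 and 48), 0 and 0 for co-treatment against GSK591 (17 and 37), 8 and 18 for co-treatment against MS023 (48 and 56) and 23 between the DMSO groups (51).

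With adjustment over all 5 event types, retained introns numbered 5 and 3 for GSK591 at 2 and 7 days, and 0 and 3 for MS023 at 2 and 7 days. With the prior over all events, those for co-treatment against GSK591 numbered 0 and 2 and those between DMSO groups 0, and events of other types 17, 10 and 26 for MS023, 7, 14 and 11 for GSK591 against MS023, 0 and 0 for co-treatment against GSK591 and 10 and 14 for co-treatment against MS023.

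Without any one library, retained introns ranged from 5 to 8, 8 to 13 and 3 to 6 for GSK591, from 0 to 1, 1 to 3 and 2 to 5 for MS023, from 6 to 9 and 12 to 15 for co-treatment, from 10 to 15, 12 to 16 and 11 to 13 for GSK591 against MS023, from 1 to 3 and 3 to 4 for co-treatment against GSK591, from 11 to 14 and 14 to 20 for co-treatment against MS023 and from 3 to 6 between DMSO groups. Events of other types ranged from 20 to 25, 30 to 35 and 27 to 34 for GSK591, from 4 to 7, 1 to 3 and 7 to 15 for MS023, from 46 to 59 and 49 to 63 for co-treatment, from 19 to 31, 33 to 46 and 33 to 39 for GSK591 against MS023, from 10 to 15 and 20 to 32 for co-treatment against GSK591, from 32 to 37 and 42 to 49 for co-treatment against MS023 and from 42 to 51 between DMSO groups. Counts that moved by over 1.5 times were these. Retained introns fell to 5 for 2 days of GSK591 without DMSO b or c or GSK591 b or c, to 3 for 7 days of GSK591 without GSK591 c, to 0 for 2 days of MS023 without DMSO b or any one MS023 library, to 1 for 4 days of MS023 without MS023 c, to 2 or 3 for 7 days of MS023 without DMSO c or any one MS023 library, to 1 for co-treatment against GSK591 at 2 days without co-treatment b, and to 3 between DMSO groups without DMSO a of 4 days or a or b of 7 days. Events of other types fell to 30 for 4 days of GSK591 without GSK591 c, to 49 for 4 days of co-treatment without DMSO b or co-treatment b, to 4 to 7 for 2 days of MS023 without any one library, to 1 for 4 days of MS023 without MS023 a, and to 7 to 11 for 7 days of MS023 without any one library but DMSO c. They fell to 23 or 19 for GSK591 against MS023 at 2 days without MS023 a or c, and for co-treatment against GSK591 to 10 at 2 days without co-treatment a and to 20, 21 or 23 at 4 days without GSK591 b, GSK591 c or co-treatment b.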
